A study of Mus musculus with 3 samples.

Results

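Spots of the ventricle wall were picked from 3 sections of mouse brain by the RNA of ependymal cells, and their RNA was compared between the sections. In each section, barcodes with at least 3000 UMIs (unique molecular identifiers, each counting 1 captured RNA molecule) were ranked by a score, the sum over Ccdc153, Tmem212, Foxj1, Rarres2 and Dynlrb2 of the natural log of 1 plus counts per 10000. Barcodes with more than 5% of their UMIs from Ttr, the transthyretin gene of choroid plexus, were set aside, and the 50 highest of the others were taken. This gave 150 chosen spots among 10239 barcodes with at least 3000 UMIs, 50 of 3332 in O-Ex, 50 of 3498 in O-Ctrl and 50 of 3409 in Y-Ctrl. The ranking uses the measured values, so the 5 genes and whatever sets these spots apart from the rest of their own section describe the choice and are not findings.

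The sections are 10 µm thick, fresh frozen, from C57BL/6J mice, 1 section per group. O-Ex is labelled exercise, and O-Ctrl and Y-Ctrl are labelled control. The series title concerns exercise and the aging brain, but the labels do not state ages, how the mice were exercised or how many there were. All 3 groups share the strain and the preparation. RNA was captured on a 10x Visium array, whose spots each cover a small piece of tissue that can hold several cells, and the labels call the molecule nuclear RNA although whole sections were laid on the array. With 1 section per group no test was possible: section, animal, plane of sectioning and condition cannot be told apart, and every interval here is an exact 95% interval for counting error only.

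The ependyma is the sheet of cells that lines the brain ventricles. Its cells carry bundles of motile cilia that move cerebrospinal fluid, and the beating of each cilium depends on dynein motor arms, radial spokes and a central pair of microtubules. Foxj1 and the RFX factors are the transcription factors best known for switching on the genes of motile cilia. The midbrain end of the third ventricle roof carries a specialised ependyma, the subcommissural organ, which secretes SCO-spondin, and the pineal gland and the medial habenula lie beside that roof.

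The 5 genes of the score are members of this ciliated programme or its surface. Ccdc153 (chromosome 9, mm10, position 44240676 to 44247306 on the plus strand, a protein-coding gene) had 708 counts in the chosen spots of O-Ex, 461 in O-Ctrl and 633 in Y-Ctrl. As CPM, the counts per 1e6 UMIs of those spots, this is 793, 636 and 806, against 10.5, 7.96 and 6.84 CPM in the other spots of O-Ex, O-Ctrl and Y-Ctrl. Foxj1 had 324, 235 and 240 counts, and Rarres2, a secreted chemerin precursor, had 934, 598 and 998. Tmem212 had 646, 483 and 560 counts and Dynlrb2, a dynein light chain, had 452, 368 and 397. These levels describe the choice and do not test the label.

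RFX factors bind the X-box, a promoter element. It was searched for in the windows from 250 bases before to 50 after the gene start, taken from RefSeq on GRCm38.p6, on both strands. GTTGCC, one arm of the X-box, was in the window of 2 of the 3 score genes in the table, Ccdc153 and Dynlrb2 but not Tmem212. It was in 33 of the 79 matched genes (41.8%) of the 98 genes of motile cilia listed for the comparison, and in 14 of 28 matched genes (50%) of a list for intraflagellar transport. It was held by 3423 of all 27025 genes there (12.7%). The full X-box was counted only in a strict form, with both arms and a fixed gap of 2 bases between them. This strict form, which can overlap the word for the arm, was in 2 of the 79 (2.53%) and in 120 of all genes (0.444%). Other gaps and looser second arms were not counted, so a gene shown with the arm alone, such as Dynlrb2, may hold a second arm. The forkhead word GTAAACA was in 3 of the 79 (3.8%) and in 959 of all genes (3.55%). The sequences show the arm, or the full element in the last, in capitals with 25 bases on each side, read 5′ to 3′ on the strand of the gene, for score genes and for cilia genes whose values follow. A match is a description of the letters only.
Ccdc153, chr9:44240500-44240555, plus strand: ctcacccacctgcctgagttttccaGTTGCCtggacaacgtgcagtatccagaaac
Dynlrb2, chr8:116504939-116504994, plus strand: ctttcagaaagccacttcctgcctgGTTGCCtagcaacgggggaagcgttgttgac
Fam183b, chr11:58801997-58802052, minus strand: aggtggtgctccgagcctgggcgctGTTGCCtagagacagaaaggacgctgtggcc
Enkur, chr2:21205369-21205424, minus strand: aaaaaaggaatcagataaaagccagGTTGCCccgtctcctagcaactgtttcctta
Sntn, chr14:13670785-13670840, plus strand: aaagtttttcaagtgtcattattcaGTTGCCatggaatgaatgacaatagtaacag
Iqca, chr1:90153498-90153561, minus strand: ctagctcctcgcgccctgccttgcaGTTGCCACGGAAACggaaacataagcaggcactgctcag
The arm begins 152 bases before the start of Ccdc153, 51 before Dynlrb2, 67 before Fam183b, 34 before Enkur and 66 before Sntn, and the full element begins 100 bases before the start of Iqca.

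The chosen spots held 892860 UMIs in O-Ex, 725154 in O-Ctrl and 785321 in Y-Ctrl, with medians per spot of 16338.5, 14235 and 14559.5. A level of 10 CPM thus stands for 8.9, 7.23 and 7.82 counts in O-Ex, O-Ctrl and Y-Ctrl. The score of the last chosen spot was 7.74 in O-Ex, 5.66 in O-Ctrl and 5.63 in Y-Ctrl, and that of the next spot was 7.73, 5.66 and 5.61, so the choice falls on a slope and not on a gap. Mitochondrially encoded genes gave 13.9%, 15.3% and 12.6% of UMIs. The sections use 1 set of barcodes, which stand for array positions, and 7 of the chosen barcodes occur in more than 1 section.

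The specialised ependyma and the tissue next to the ependyma in the chosen spots differed between the 3 sections. The subcommissural organ was in the O-Ex and O-Ctrl spots and not in the Y-Ctrl spots. Sspo, the gene of SCO-spondin (chromosome 6, position 48448229 to 48501250), had 444 counts in O-Ex and 374 in O-Ctrl, against 3 in Y-Ctrl. A single spot gave 88.3% of the Sspo counts in O-Ex and 58.8% in O-Ctrl. Spdef, a transcription factor of secretory cells, had 49 and 60 counts, against 0 in Y-Ctrl, and Car3, a carbonic anhydrase, had 32 and 33, against 5. All 3 listed genes of this organ were thus far above Y-Ctrl in both O sections, and in both they came from a few spots. Spp2 (103 counts in O-Ex, 127 in O-Ctrl and 2 in Y-Ctrl) and Wfdc2 (105, 115 and 4), both genes of secreted proteins, were among the 10 highest O-Ctrl over Y-Ctrl ratios as well.

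Photoreceptor-type genes of the pineal were most plentiful in the O-Ctrl spots. Pde6g, a subunit of the photoreceptor phosphodiesterase, had 36 counts in O-Ex, 149 in O-Ctrl and 1 in Y-Ctrl. Sag, the arrestin of photoreceptors, had 14, 87 and 2 counts. Tph1, which begins the synthesis of serotonin and so of melatonin, had 15, 56 and 0. This list, which was drawn up after these genes were seen to lead the ratios, summed to 192 CPM in O-Ex, 809 in O-Ctrl and 60.1 in Y-Ctrl. Of its 11 genes whose mean reached 10 CPM, 10 were at least 1.5-fold lower in O-Ex than in O-Ctrl, against 5.8% of all such genes, and since the list was picked on these values the count is a description. With the 25 highest spots of each section the direction turned, to a list median log2 ratio of 0.14 for O-Ex over O-Ctrl and ratios of 0.38 for Pde6g, 0.40 for Sag and 0.38 for Tph1.

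Medial habenula RNA, by contrast, was in the Y-Ctrl spots. Tac2, the neurokinin B gene of medial habenula neurons (chromosome 10, position 127724478 to 127731768), had 0 counts in O-Ex and 4 in O-Ctrl, against 451 in Y-Ctrl, where 28 of the 50 spots held it. Pou4f1, a transcription factor of habenula neurons, had 0, 1 and 32 counts. Nwd2 had 6, 1 and 148 counts and Chrna3, a nicotinic receptor subunit, had 6, 6 and 39. The habenula list summed to 24.7 CPM in O-Ex, 73.3 in O-Ctrl and 1013 in Y-Ctrl, against 34.7, 38.8 and 66.5 CPM in the other spots of these sections. The genes at both ends of the O-Ctrl over Y-Ctrl ratios therefore belonged largely to the subcommissural organ, itself a specialised ependyma, and to the pineal and habenula beside it.

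Spots with at least 3 UMIs per 10000 from the habenula, subcommissural organ or pineal lists are called marked from here on, a rule set after these values were seen. There were 10 in O-Ex, 12 in O-Ctrl and 24 in Y-Ctrl, which leaves 40, 38 and 26 unmarked spots. Of the marked spots the habenula list met the limit in 1, 3 and 24, the subcommissural organ list in 4, 5 and 0 and the pineal list in 6, 7 and 0. Leaving out marked spots thus also leaves out spots with the specialised ependyma of the subcommissural organ in O-Ex and O-Ctrl. Values over the unmarked spots are given beside the counts that they change by more than 1.5 times.

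**Figure D1:**
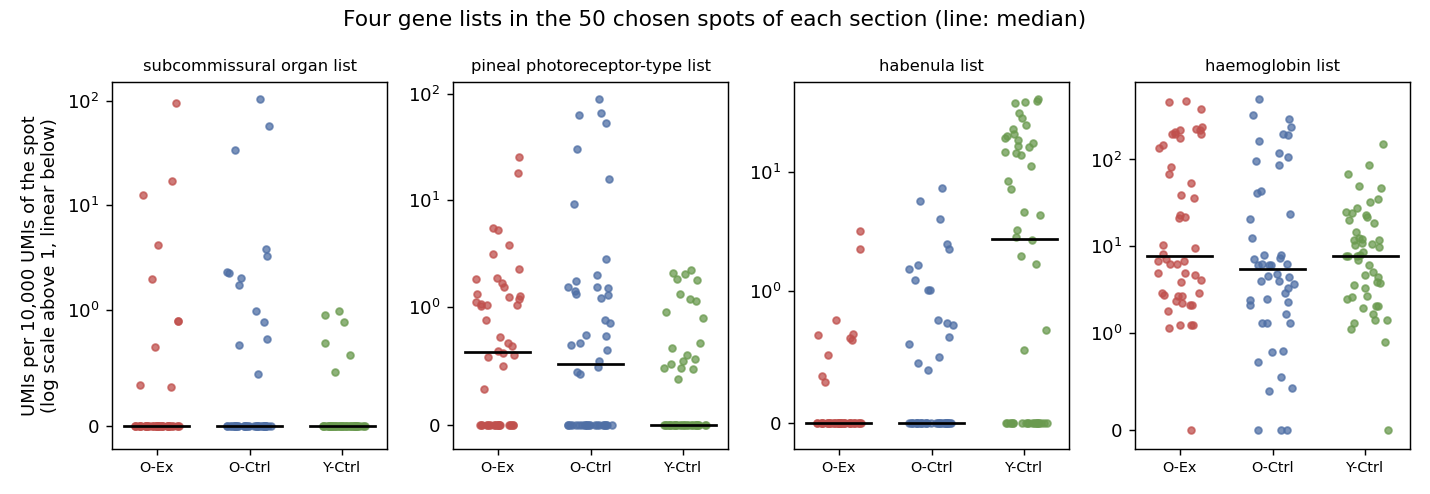
Summed level of 4 gene lists in each chosen spot (UMIs per 10000 UMIs of the spot, log scale above 1 and linear below) for the subcommissural organ, pineal photoreceptor-type, habenula and haemoglobin lists, with the 50 spots of O-Ex, O-Ctrl and Y-Ctrl from left to right and a line at each median. The first pair of lists is high in a few O-Ex and O-Ctrl spots and under 3 in every Y-Ctrl spot, habenula genes are high in 24 Y-Ctrl spots, and haemoglobin counts are concentrated in some spots of each section.

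The motile cilia programme itself had similar summed levels in the 3 sets of chosen spots. The 98 listed genes summed to 8268 CPM (8080 to 8459) in O-Ex, 8059 (7854 to 8269) in O-Ctrl and 7604 (7412 to 7800) in Y-Ctrl. In the other spots they summed to 593.8, 503.5 and 427.5 CPM. In the chosen spots the level is partly set by the choice, because 50 spots were taken from each section and these genes follow the score. Per spot the sum had a median of 80.8 per 10000 in O-Ex, 63.0 in O-Ctrl and 60.8 in Y-Ctrl, with ranges of 27.6 to 145, 15.9 to 187 and 11.8 to 220, so the sections overlapped over most of their range.

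How far the ciliated signal reached down the ranking differed more than its total. The 10 highest spots had 10825 CPM of cilia genes in O-Ex, 12398 in O-Ctrl and 13184 in Y-Ctrl. Spots ranked 26 to 50 had 6632, 5640 and 4134 CPM, and those ranked 51 to 100, which were not chosen, had 4687, 2889 and 2129. With every spot kept, O-Ex was thus lowest in the 10 highest spots and highest below them, and Y-Ctrl had the reverse order. The Y-Ctrl lead in those 10 rests on its highest-scoring spot, at 220 cilia UMIs per 10000, so the order there describes that spot. Without this spot the sum over the chosen Y-Ctrl spots fell from 7604 to 6636 CPM, and no sum of the 10 highest without it is given here. Y-Ctrl spots ranked 26 to 50 and 51 to 100 also held 1503 and 1441 CPM of habenula genes, against at most 119.7 in O-Ex and O-Ctrl. Whether the O-Ex levels lower in the ranking are more ventricle lining on that section or more RNA per cell cannot be told apart in spots.

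**Figure D2:**
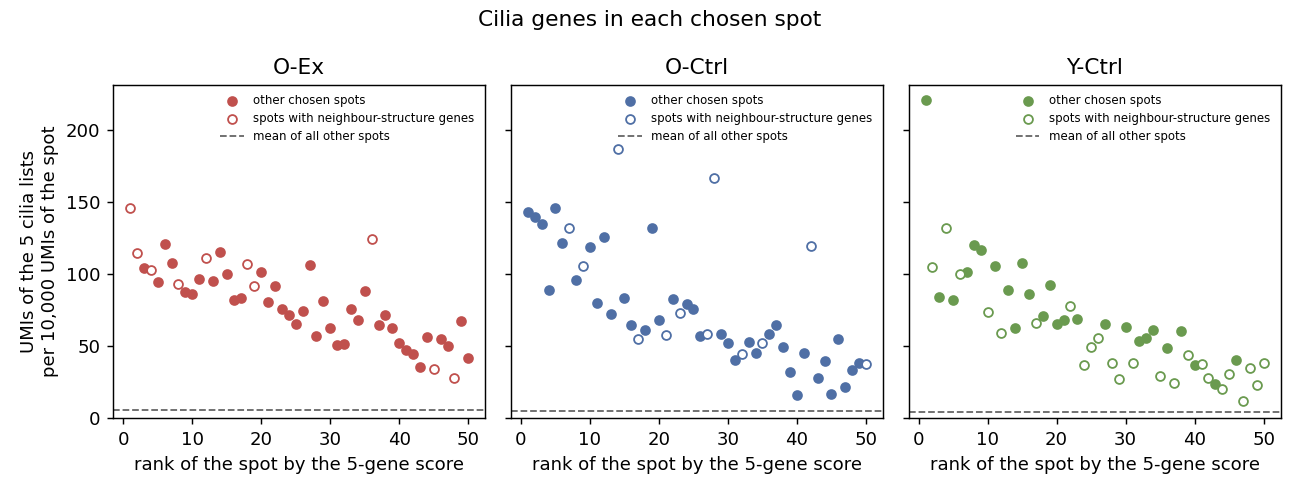
Summed UMIs of the 98 motile cilia genes per 10000 UMIs of the spot (vertical axis) against the rank of the spot by score (horizontal axis), for O-Ex, O-Ctrl and Y-Ctrl, with open symbols for marked spots. Medians were 80.8, 63.0 and 60.8, and the single highest spot is rank 1 of Y-Ctrl at 220.

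Single cilia genes are given here by their place in the cilium. Fam183b, whose protein lies inside the ciliary microtubules, had 472 counts or 530 CPM (484 to 581) in O-Ex, 354 or 490 (440 to 543) in O-Ctrl and 331 or 423 (379 to 471) in Y-Ctrl. Rsph1, a head protein of the radial spokes, had 406, 365 and 382 CPM, and Dnah6, an inner arm dynein heavy chain, had 94, 91 and 79 counts. Enkur, a protein inside the microtubule doublets, had 162, 166 and 212 CPM, and Iqca had 76.4, 81.6 and 95.8. Sntn, of the cilium tip, had 118, 73 and 99 counts. Their levels in the other spots were 15.7 CPM or less in every section.

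Of the 98 genes 90 were measured, meaning a mean of at least 10 CPM over the 3 sets of spots. A log2 ratio was taken on CPM plus 5, which understates differences of low genes, and 1.5-fold was used as the size to describe. In O-Ctrl over Y-Ctrl 4 of the 90 were at least 1.5-fold higher and 3 lower, with a median log2 ratio of 0.10. Over all 9988 measured genes the shares were 6.89% higher and 12.2% lower, with a median of -0.08. In O-Ex over O-Ctrl 1 was higher and 4 lower, with a median of -0.03, against 8.37% and 5.8% of all genes and a median of 0.04. Over the unmarked spots 0 of the 90 were higher and 15 lower in O-Ctrl over Y-Ctrl, with a median of -0.27, where 10.7% of all genes were higher and 15.2% lower. For O-Ex over O-Ctrl 4 were higher and 2 lower there, with a median of 0.0015, against 12.2% and 7.27% of all genes. Without the highest-scoring spot as well, 7 were higher and 5 lower in O-Ctrl over Y-Ctrl, against 1231 and 1427 of all 9764 genes measured there. The count and direction of that comparison thus depend on the spots used. Both comparisons share the O-Ctrl spots, so their ratios are not independent.

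Most cilia genes past 1.5-fold had few counts. Spag17, of the central pair, had 25 counts in O-Ex, 33 in O-Ctrl and 19 in Y-Ctrl, or 28.1 CPM (18.2 to 41.5), 45.6 (31.4 to 64.1) and 24.3 (14.6 to 37.9). Its 3 intervals overlapped, and its log2 ratios were -0.61 for O-Ex over O-Ctrl and 0.79 for O-Ctrl over Y-Ctrl. Drc7 (0.60) and Ribc2 (0.63) were also higher in O-Ctrl than in Y-Ctrl, and the ratios of Ak8 (-0.70), Dnaaf2 (-0.86) and Efhb (-0.86) were lower. In O-Ex over O-Ctrl Spef2 was higher (0.59, 69 against 36 counts), and Dydc2 (-0.85) and Gas8 (-0.64) were lower. The cilia sum also rested on 1 spot in Y-Ctrl, the highest-scoring one, with 31.9% of the Cdhr4 counts and 21.4% of those of Rsph1. Without the highest-scoring spot of each section the sums were 8131, 7895 and 6636 CPM in O-Ex, O-Ctrl and Y-Ctrl, and over unmarked spots 7551, 7396 and 9163. The order of the sections in total cilia RNA therefore turned with the spots used, and leaving out both kinds gave 7551, 7141 and 7557 CPM.

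Genes that build and load cilia had similar summed levels. Intraflagellar transport moves cargo along the cilium, and its list summed to 1939 CPM in O-Ex, 1881 in O-Ctrl and 1995 in Y-Ctrl. Of its 31 measured genes 1 was higher and 1 lower in O-Ctrl over Y-Ctrl, against 6.89% and 12.2% of all genes. In O-Ex over O-Ctrl 5 were higher and 2 lower, against 8.37% and 5.8% of all genes. Over the unmarked spots 2 were higher and 8 lower in O-Ctrl over Y-Ctrl, with a median of -0.25, against 10.7% and 15.2% of all genes. Without the highest-scoring spot as well 2 were higher and 4 lower, against 1231 and 1427 of all 9764 genes measured there. Ift80 had 83 counts in O-Ex against 38 in O-Ctrl (log2 ratio 0.77), Bbs5 of the BBSome had 23 against 10 (0.71), and Kif3a, a motor subunit, had 27 against 13 (0.62). The Kif3a ratio turned to -0.52 with the 25 highest spots. The list of factors that regulate ciliogenesis summed to 345, 321 and 396 CPM in O-Ex, O-Ctrl and Y-Ctrl. Of its 11 measured genes 0 were higher and 1 lower in O-Ctrl over Y-Ctrl, against 6.89% and 12.2% of all genes. The median there was -0.17. Over the unmarked spots 1 was higher and 1 lower, against 10.7% and 15.2%. In O-Ex over O-Ctrl 1 was higher, and 0 without marked spots, against 8.37% and 12.2% of all genes. Among these factors, Myb had 37, 23 and 26 counts in O-Ex, O-Ctrl and Y-Ctrl, and Rfx3 had 36, 30 and 40. Mcidas, a master regulator of multiciliated cells, had no count in any chosen spot, which allows up to 3.37, 4.15 and 3.83 CPM.

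A few surface and secreted genes of ependyma were past 1.5-fold. Over 24 measured genes the median log2 ratio was -0.06 in O-Ctrl over Y-Ctrl with 0 higher and 2 lower, against 6.89% and 12.2% of all genes. It was 0.23 in O-Ex over O-Ctrl with 3 higher and 0 lower, against 8.37% and 5.8% of all genes. Over the unmarked spots 0 were higher and 6 lower in O-Ctrl over Y-Ctrl, with a median of -0.39, against 10.7% and 15.2% of all genes. In O-Ex over O-Ctrl 5 were higher and 0 lower there, against 12.2% and 7.27% of all genes. Krt15, a keratin, had 35 counts in O-Ex, 10 in O-Ctrl and 28 in Y-Ctrl, or 39.3 CPM (27.4 to 54.7), 13.8 (6.63 to 25.4) and 35.8 (23.8 to 51.7). O-Ctrl was therefore the low section for Krt15, with log2 ratios of 1.24 for O-Ex over O-Ctrl and -1.11 for O-Ctrl over Y-Ctrl. S100a11, a calcium-binding protein, had 152, 71 and 78 counts (0.77 in O-Ex over O-Ctrl), and Itih5, which stabilises hyaluronan, had 67, 28 and 26 (0.88). Cd24a, a surface glycoprotein of ependymal cells, was level at 338, 349 and 348 CPM. Zic1, a transcription factor counted in this list though it is not a surface or secreted protein, had 84, 60 and 211 counts in O-Ex, O-Ctrl and Y-Ctrl. Its O-Ctrl over Y-Ctrl ratio was -1.64, and -0.83 over unmarked spots. Zic1 is also in a list of septum neuron genes, which summed to 293 CPM in Y-Ctrl and to 72.1 over its unmarked spots. The part of neuron RNA in the Zic1 ratio was not tested.

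Most of the measured genes induced by interferon were lower in O-Ex than in O-Ctrl. These genes are switched on in cells that sense interferon, and the list summed to 952 CPM (889 to 1018) in O-Ex, 1079 (1004 to 1157) in O-Ctrl and 744 (685 to 807) in Y-Ctrl. Of 16 measured genes 10 were at least 1.5-fold lower and 0 higher in O-Ex than in O-Ctrl, with a median log2 ratio of -0.65, against 5.8% of all genes lower. In O-Ctrl over Y-Ctrl 8 of 16 were higher and 0 lower, with a median of 0.58, against 6.89% of all genes higher.

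Gbp2, a guanylate-binding protein that acts against intracellular microbes (chromosome 3, position 142620602 to 142638008), led the list. It had 16 counts in O-Ex, 49 in O-Ctrl and 18 in Y-Ctrl, or 18 CPM (10.3 to 29.2), 67.8 (50.1 to 89.6) and 23 (13.6 to 36.4). The intervals of O-Ex and Y-Ctrl overlapped each other and neither reached that of O-Ctrl. Its log2 ratio was -1.66 for O-Ex over O-Ctrl and 1.38 for O-Ctrl over Y-Ctrl. After thinning each spot to 3000 UMIs it was found in 5 of 50 chosen spots of O-Ex (10%), 11 of O-Ctrl (22%) and 4 of Y-Ctrl (8%), and in 3.6%, 8.2% and 1.4% of 500 other spots of each section. The section that was high in chosen spots was thus high in the other spots too.

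Igtp, an interferon-inducible GTPase, had 15 counts in O-Ex, 33 in O-Ctrl and 11 in Y-Ctrl, with log2 ratios of -1.21 for O-Ex over O-Ctrl and 1.41 for O-Ctrl over Y-Ctrl. Oasl2, an antiviral protein related to oligoadenylate synthetases, had 19, 25 and 7 counts, with ratios of -0.59 and 1.5. Isg15, a ubiquitin-like modifier, had 10, 17 and 8 counts (-0.81 and 0.91), and Ifit3, which binds foreign RNA, had 25, 35 and 25 (-0.69 and 0.53). Gbp3, Rtp4 and Irgm2 were lower in O-Ex than in O-Ctrl as well, with ratios of -0.85, -0.85 and -0.84, and so were Xaf1 (-0.67) and Gbp7 (-0.63). Not every interferon gene followed: Ifitm3, which blocks viral entry, had 345 counts in O-Ex, 227 in O-Ctrl and 224 in Y-Ctrl, and Bst2, which tethers viruses, had 66, 55 and 29.

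The O-Ex over O-Ctrl difference of this list was no smaller in unmarked spots, where its median was -0.80 with 9 genes lower, against 7.27% of all genes lower. The O-Ctrl over Y-Ctrl difference was smaller in unmarked spots, with a median of 0.22 and 4 of 16 genes higher, against 10.7% of all genes higher. There the summed levels were 940 CPM in O-Ex, 1090 in O-Ctrl and 1000 in Y-Ctrl. Among the other spots of the sections the medians were -0.27 for O-Ex over O-Ctrl and 0.64 for O-Ctrl over Y-Ctrl. Whether the ratio at the ventricle wall differs from that in the rest of the section was not tested, since there is 1 section per group.

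Complement genes had another order, highest in O-Ex and lowest in Y-Ctrl. Complement tags debris and synapses for removal, and its list summed to 996 CPM (931 to 1064) in O-Ex, 732 (671 to 797) in O-Ctrl and 440 (394 to 489) in Y-Ctrl. Of 7 measured genes 5 were higher in O-Ctrl than in Y-Ctrl, with a median log2 ratio of 0.66, and 3 without marked spots, against 6.89% and 10.7% of all genes. In O-Ex over O-Ctrl 2 were higher, with a median of 0.46, and 4 without marked spots, against 8.37% and 12.2% of all genes.

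C3, the central complement protein (chromosome 17, position 57203970 to 57228136), had 83 counts in O-Ex, 39 in O-Ctrl and 13 in Y-Ctrl. In CPM this was 93.3 (74.3 to 116), 53.9 (38.4 to 73.7) and 16.6 (8.85 to 28.4), 3 intervals that did not overlap, and C3 in the other spots was at 5.98, 3.23 and 0.712. The log2 ratios of C3 were 0.74 for O-Ex over O-Ctrl and 1.45 for O-Ctrl over Y-Ctrl. After thinning to 3000 UMIs it was found in 11, 10 and 3 of 50 chosen spots of O-Ex, O-Ctrl and Y-Ctrl. C1qa, a subunit of the complement starter made by microglia, had 178, 121 and 74 counts (0.25 and 0.79).

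C4b had 244 counts or 274 CPM (241 to 311) in O-Ex, 129 or 178 (149 to 212) in O-Ctrl and 87 or 111 (89.1 to 137) in Y-Ctrl. Reads of C4b can be shared with its near copy C4a. In the other spots C4b was at 97.8, 89.7 and 13.9 CPM, so that its log2 ratio for O-Ctrl over Y-Ctrl was 0.66 in the chosen spots and 2.32 in the others. In Y-Ctrl the chosen spots were thus well above the rest of the section in C4b, and less so in the O sections.

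Gfap, the intermediate filament of astrocytes and of some cells at the ventricle wall, had the same shape. It had 351 counts in O-Ex, 234 in O-Ctrl and 272 in Y-Ctrl, or 394 CPM (354 to 438), 324 (284 to 368) and 348 (308 to 391). In the other spots it was at 142, 126 and 46.8 CPM. The log2 ratio for O-Ctrl over Y-Ctrl was -0.10 in the chosen spots, against 1.33 in the others. Vim, a filament gene of ependyma, had ratios of 0.08 and 0.59, with 897, 768 and 727 CPM in the chosen spots of O-Ex, O-Ctrl and Y-Ctrl. Of 9 measured genes of the reactive astrocyte list 3 were higher in O-Ctrl than in Y-Ctrl, against 6.89% of all genes. Among the 3 was Gbp2, which is also in the interferon list, so the 2 lists are not separate there. Another was Serpina3n, a protease inhibitor, with 59, 48 and 21 counts in O-Ex, O-Ctrl and Y-Ctrl (1.16). The list had a median of 0.08, and of 0.59 in the other spots. Over the unmarked spots 2 of the 9 were higher and 3 lower in O-Ctrl than in Y-Ctrl, with a median of -0.17. The shares of all genes there were 10.7% higher and 15.2% lower. In O-Ex over O-Ctrl 1 of the 9 was higher and 1 lower, with a median of 0.28, against 8.37% and 5.8% of all genes. The unmarked spots had 3 higher and 1 lower in O-Ex over O-Ctrl, with a median of 0.48. Of all genes 12.2% were higher and 7.27% lower there.

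Most measured antigen presentation genes were higher in O-Ctrl than in Y-Ctrl over all chosen spots, but not over the unmarked ones. Antigen presentation summed to 1004 CPM in O-Ex, 941 in O-Ctrl and 635 in Y-Ctrl. Of 12 measured genes 8 were higher in O-Ctrl than in Y-Ctrl, with a median of 0.85, against 6.89% of all genes. In O-Ex over O-Ctrl 1 was higher and 0 lower, with a median of -0.00, against 8.37% and 5.8% of all genes. H2-D1, a class I heavy chain whose reads can be shared with its family, had 139, 114 and 65 counts in O-Ex, O-Ctrl and Y-Ctrl (0.89 for O-Ctrl over Y-Ctrl). Cd74, the class II chaperone, had 41, 19 and 4 counts, and the 4 in Y-Ctrl came from 1 spot. Without marked spots 4 of 12 were higher in O-Ctrl than in Y-Ctrl, with a median of 0.20, against 10.7% of all genes. There 4 were higher and 1 lower in O-Ex than in O-Ctrl, against 12.2% and 7.27% of all genes.

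Some microglial genes were past 1.5-fold. Of 16 lysosomal and activated microglia genes 6 were higher in O-Ctrl than in Y-Ctrl (median 0.33), and 3 without marked spots. Of 11 genes of homeostatic microglia 3 were higher, and 1 without marked spots. The shares of all genes higher were 6.89%, and 10.7% without marked spots. Lyz2, the lysozyme of myeloid cells, had 75, 63 and 22 counts in O-Ex, O-Ctrl and Y-Ctrl (1.48 for O-Ctrl over Y-Ctrl). Trem2, a lipid receptor of microglia, had 38, 22 and 12 counts (0.80). Tmem119, a marker of resident microglia, had 19, 23 and 7 (1.40). In O-Ex over O-Ctrl 1 of the 16 was higher, and 2 without marked spots, against 8.37% and 12.2% of all genes. The 1 over all chosen spots is Spp1, the osteopontin gene, with 34 counts in O-Ex, 6 in O-Ctrl and 1 in Y-Ctrl. Genes of peripheral myeloid cells such as Mrc1 and Pf4 were too low to be measured, at 45.0, 11.1 and 17.9 CPM in sum, so the presence of such cells was not resolved.

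**Figure D3:**
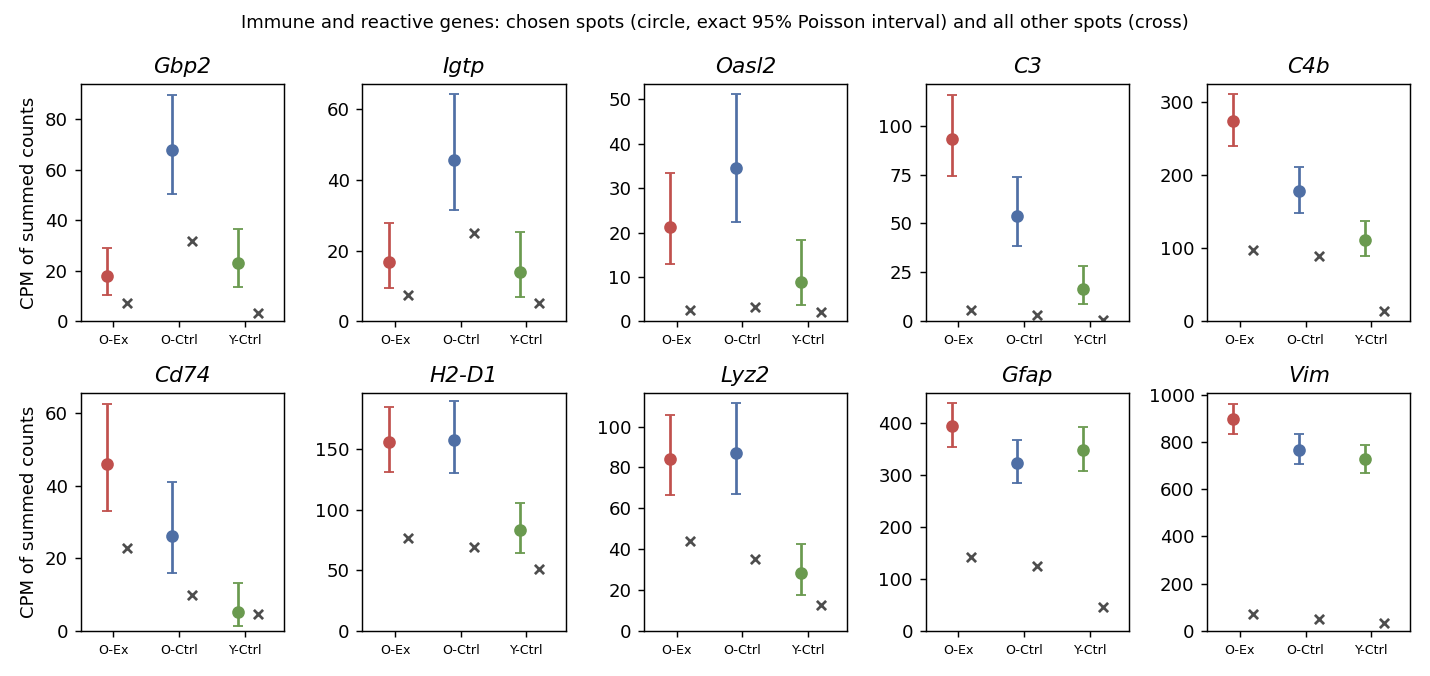
CPM with exact 95% Poisson intervals in the chosen spots of O-Ex, O-Ctrl and Y-Ctrl (left to right within each gene) for 10 genes: Gbp2, Igtp, Oasl2, C3, C4b, Cd74, H2-D1, Lyz2, Gfap and Vim, with crosses for the level in the other spots. Gbp2 and Igtp are highest in O-Ctrl (67.8 and 45.6 CPM), C3 and C4b are highest in O-Ex (93.3 and 274 CPM), and Gfap is at 324 to 394 CPM in all 3 sections.

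Blood, choroid plexus and covering membranes also differed beside these results. Genes of red blood cells, mostly haemoglobins, summed to 8786 CPM in O-Ex, 5206 in O-Ctrl and 1612 in Y-Ctrl. All 5 of the blood list were higher in O-Ctrl than in Y-Ctrl and in O-Ex than in O-Ctrl, with medians of 1.54 and 0.74. Of all genes 6.89% and 8.37% were higher in these comparisons. Hba-a1 had 1957, 969 and 248 counts, and its reads can be shared with its near copy. The median spot held 7.63, 5.43 and 7.76 haemoglobin UMIs per 10000 in O-Ex, O-Ctrl and Y-Ctrl, against highest spots of 471, 499 and 152. The blood sums thus rested on a part of the spots. Choroid plexus genes summed to 7562, 9773 and 5714 CPM and meningeal fibroblast genes to 5346, 4368 and 2822. The choroid plexus list holds Ttr, which the choice limits to 5% of the UMIs of a spot, so its level is partly set by the choice. The median spot held 20.6, 11.9 and 16.2 choroid plexus UMIs per 10000 in O-Ex, O-Ctrl and Y-Ctrl. O-Ctrl was thus lowest by the median spot though highest by the sum. Without marked spots the choroid plexus sums were 9012, 8304 and 7203 CPM and the meningeal sums 6141, 3528 and 3575 CPM. There O-Ctrl was no longer highest in the choroid plexus sum nor above Y-Ctrl in meningeal genes. The part of blood, choroid plexus and meninges in the immune and complement values was not tested.

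Vessel genes were mixed. Of 14 endothelial genes 4 were higher and 0 lower in O-Ex than in O-Ctrl, and 3 higher and 2 lower in O-Ctrl than in Y-Ctrl. Of all genes 8.37% were higher and 5.8% lower in O-Ex than in O-Ctrl, and 6.89% higher and 12.2% lower in O-Ctrl than in Y-Ctrl. Over the unmarked spots 7 of the 14 were higher and 0 lower in O-Ex than in O-Ctrl, with a median of 0.50. There 5 were higher and 2 lower in O-Ctrl than in Y-Ctrl. The unmarked shares of all genes were 12.2% higher and 7.27% lower, and 10.7% higher and 15.2% lower, in these comparisons. Cldn5, the tight junction protein of brain endothelium, had 55, 20 and 35 counts in O-Ex, O-Ctrl and Y-Ctrl (1.03 for O-Ex over O-Ctrl), and a single spot gave 23.6% of the O-Ex counts. Acta2, the actin of smooth muscle, had 99, 37 and 84 counts, with log2 ratios of 1.05 for O-Ex over O-Ctrl and -1.0 for O-Ctrl over Y-Ctrl. O-Ctrl was the low section for Acta2, as for Krt15, but not for most of the list of arterial mural (vessel wall) cells that holds Acta2. Of its 5 measured genes 3 were higher and 1, Acta2, was lower in O-Ctrl than in Y-Ctrl, with a median of 0.91. In O-Ex over O-Ctrl 1 was higher, again Acta2, and 1 lower, with a median of -0.11. Over the unmarked spots 1 was higher and 1 lower in O-Ctrl than in Y-Ctrl, with a median of -0.010.

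Myelin genes, which are made by oligodendrocytes, summed to 12647 CPM in O-Ex, 10401 in O-Ctrl and 14198 in Y-Ctrl. Of 16 genes 3 were lower and 0 higher in O-Ctrl than in Y-Ctrl (median -0.39), against 12.2% and 6.89% of all genes. In O-Ex over O-Ctrl 4 were higher and 0 lower (median 0.26), against 8.37% and 5.8%. In the unmarked spots 6 were lower in O-Ctrl than in Y-Ctrl and 2 higher in O-Ex than in O-Ctrl, against 15.2% and 12.2% of all genes. Synaptic neuron genes summed to 1927, 2048 and 2258 CPM, against 7541, 7140 and 7391 in the other spots. The chosen spots thus held neuronal RNA at a lower level than the rest of the tissue in each section.

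Glial and transport genes next to the ventricle gave a few single differences. Fabp7, a fatty acid carrier of radial glia and astrocytes, had 67 counts in O-Ex, 160 in O-Ctrl and 204 in Y-Ctrl (-1.49 for O-Ex over O-Ctrl and -0.79 over unmarked spots). Aqp4, the water channel that faces the ventricle and vessels, had 287, 175 and 307 counts (-0.69 for O-Ctrl over Y-Ctrl), and Slc16a1, a lactate carrier, had 106, 56 and 112 (-0.85 for O-Ctrl over Y-Ctrl and 0.59 for O-Ex over O-Ctrl). Aqp4 and Slc16a1 were thus lowest in O-Ctrl. Over 19 alternatives the O-Ctrl over Y-Ctrl ratio ranged from -0.69 to -0.26 for Aqp4 and from -1.18 to -0.65 for Slc16a1. The Aqp4 difference was therefore under 1.5-fold in part of them. Of 18 genes of ion, water and fluid transport 4 were higher and 0 lower in O-Ex than in O-Ctrl, against 8.37% and 5.8% of all genes. In O-Ctrl over Y-Ctrl 1 was higher and 2 lower, against 6.89% and 12.2%. The unmarked spots had 3 higher and 1 lower in O-Ex than in O-Ctrl, against 12.2% and 7.27% of all genes. They had 2 higher and 3 lower in O-Ctrl than in Y-Ctrl, against 10.7% and 15.2%. Dcx, of migrating young neurons, had 0, 2 and 5 counts in O-Ex, O-Ctrl and Y-Ctrl, too few to rank. Of 4 measured senescence genes 1 was lower in O-Ctrl than in Y-Ctrl, Cdkn1a, a cell cycle inhibitor, with 19, 16 and 30 counts (-0.68). Over the unmarked spots 2 of the 4 were lower. The shares of all genes lower were 12.2% and, over the unmarked spots, 15.2%.

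Several of the highest O-Ex over O-Ctrl ratios were of genes with few counts. Tbccd1, a tubulin cofactor-like protein, had 17 counts in O-Ex, 2 in O-Ctrl and 19 in Y-Ctrl, and Cdon, a hedgehog co-receptor, had 22, 4 and 13. Mme, the peptidase neprilysin, had 15, 2 and 12 counts. Egr1, an immediate early gene of neurons, had 19, 3 and 15. In each of these the O-Ctrl spots had 4 counts or fewer, so that the ratio rests on O-Ctrl being low.

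**Figure D4:**
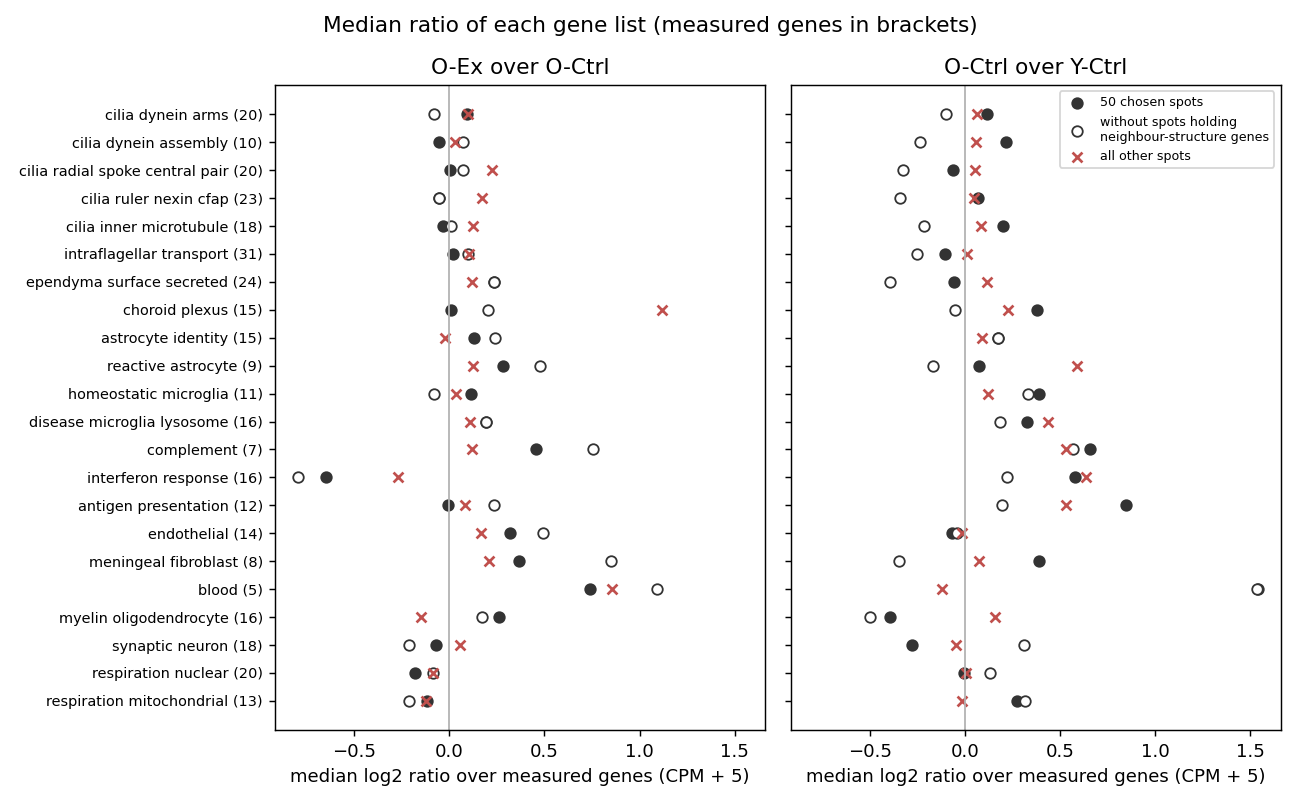
Median log2 ratio (horizontal axis, on CPM plus 5) of 22 gene lists over their measured genes, for O-Ex over O-Ctrl (left panel) and O-Ctrl over Y-Ctrl (right panel), with filled points for the chosen spots, open points for unmarked spots and crosses for the other spots of the sections. The interferon list is at -0.65 on the left and 0.58 on the right, complement is above 0 in both at 0.46 and 0.66, and the interferon point on the right moves to 0.22 in unmarked spots.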

How the data were processed

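The deposited files hold raw UMI counts per gene (31053 genes) and barcode for 3 sections. The authors' counts came from Space Ranger (2.0.0 per the file headers), with genome build mm10 per the submitters' processing notes. Positions of the spots were not used. Counts were summed over the 50 chosen spots of a section and divided by their total without the 5 score genes to give CPM. Log2 ratios were taken on CPM plus a pseudocount of 5, where the mean reached 10 CPM, leaving out the score genes, Xist and Y-linked genes. Intervals are exact Poisson for CPM (scipy 1.17.1). No significance test was run. Comparisons were O-Ctrl over Y-Ctrl and O-Ex over O-Ctrl. TMM factors came from edgeR 4.0.16. The counting was tested on simulated data. The genes named are the 10 highest and 10 lowest ratios of each comparison that kept direction with 25 and 100 spots, of each list the 2 most abundant, the 2 with the largest ratios and all past 1.5-fold, and the 20 leading genes of the chosen spots. Dcx, Iqca, Mcidas, Mrc1 and Pf4 fall outside this rule and were picked with their values known. The members and lists were chosen with earlier results of these data known. Promoter windows came from RefSeq, and gene positions from the GENCODE annotation for mm10, counted from 1. Of the cilia genes past 1.5-fold, 1 is counted but not reported by name here.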

Additional observations from a re-analysis of the deposited data

How the results depend on the processing

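Counts of genes past 1.5-fold were 688 higher and 1214 lower in O-Ctrl over Y-Ctrl, and 836 higher and 579 lower in O-Ex over O-Ctrl. In the same order they were 190, 279, 143 and 106 at a fold of 2, 372, 750, 465 and 293 at a minimum mean of 20 CPM, 31, 57, 20 and 15 at 100 CPM, and 233, 443, 196 and 139 with a pseudocount of 20 CPM, so most rest on low counts. With the 25 highest spots there were 1107 higher in O-Ctrl over Y-Ctrl and 1510 higher and 1009 lower in O-Ex over O-Ctrl, and with 100 spots 267 lower in O-Ex over O-Ctrl. Without marked spots 1055 were higher in O-Ctrl over Y-Ctrl, and without these and the highest-scoring spot 1231, and 1279 in O-Ex over O-Ctrl. These spot removals and the 100 CPM minimum, 4 of 23 alternatives, were chosen after seeing the data.

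Over 19 alternatives the interferon list median stayed between -0.81 and -0.43 in O-Ex over O-Ctrl and between 0.22 and 1.10 in O-Ctrl over Y-Ctrl, and the complement median between 0.35 and 0.88 and between 0.48 and 0.77. Gbp2 ranged from -1.86 to -1.16 in O-Ex over O-Ctrl, and C3 from 0.43 to 1.08.

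Some O-Ctrl over Y-Ctrl ratios turned sign without marked spots: Car3 -0.41, Sag -0.46, Spag17 -0.049, Spp1 -0.069 and the mural cell median -0.010. Without the highest-scoring spot as well, Pou4f1 was 0.48, Sag -0.53, Spp1 -0.11 and the thalamus neuron median 0.15. With 25 spots the mural median was -0.0097, and with Ttr limited to 1% of UMIs the Ttr ratio was -1.37. In O-Ex over O-Ctrl the ratios of Pde6g, Sag and Tph1 turned to 0.38, 0.40 and 0.38 with 25 spots, to 0.67, 0.21 and 0.67 without marked spots and to 0.67, 0.19 and 0.67 without the highest-scoring spot as well. Kif3a was -0.52 and the pineal list median 0.14 with 25 spots. The cause of these changes was not tested beyond the removal of the spots themselves. No paired analysis was possible because each group has 1 section.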
